A study of Drosophila melanogaster with 12 samples.

Results

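The small RNA table of the study counts reads on every annotated exon of the fly genome, 1 row per exon of each transcript. The abundant exon rows described here were selected on their measured counts: a row was taken when it held at least 300 counts summed over all 6 small RNA libraries. That gave 3183 of 181124 exon rows, in a table of 285351 rows of all classes. Because a transcript's exon is listed again for each isoform, the 3183 rows fall to 2246 once rows of a gene with the same counts are taken once. They belong to 1636 host genes and, for 24 rows, to 22 accessions that had no gene in the reference table and stay unnamed. The total count is what chose the rows, so it is given as a description, and a row could also enter through one genotype alone.

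Both groups are Drosophila heads of the strain labelled 2U. In Repo > hTDP-43 flies the pan-glial driver Repo turned on a human TDP-43 (hTDP-43) transgene (libraries S22, S23 and S24), and Repo / + flies carried the driver without the transgene (S19, S20 and S21). The RNA-seq used beside them came from Repo > hTDP-43 heads (S05 and S06) and from hTDP-43 / + heads with the transgene and no driver (S14 and S15), from flies 8 to 10 days old, so the 2 assays have different controls. The age and sex of the flies in the small RNA libraries, the number of flies per library and whether libraries came from separate crosses are not given in the sources used here, so p-values measure the spread between these libraries, which may be technical. Per the study's methods most Repo > hTDP-43 flies that emerge are male, so sex and genotype cannot be told apart where the heads were not matched. The transgene itself is not analysed here. In whole heads, fewer cells of a type and less RNA per cell cannot be told apart.

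TDP-43 is an RNA-binding protein that forms aggregates in amyotrophic lateral sclerosis, and the study asked whether its expression in flies disturbs the silencing of retrotransposons by small RNAs. In fly somatic cells Dicer-2 cuts double-stranded RNA into siRNAs that are loaded into AGO2, and besides transposons the sources of such endogenous siRNAs include long hairpin transcripts and overlapping convergent genes. Reads of this length on exons can also be pieces of abundant structured RNAs (snRNAs, snoRNAs) or of mRNAs, and the row names carry no strand and the counts no read length, so siRNAs and fragments could not be separated.

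The small RNA libraries held between 31074082 and 37736599 counts. The abundant rows, each count profile of a gene once, took 2.97%, 2.34% and 2.14% of the counts in the Repo > hTDP-43 libraries S22, S23 and S24, against 2.24%, 1.78% and 2.35% in the Repo / + libraries S19, S20 and S21. The means were 2.48% ± 0.429 in Repo > hTDP-43 and 2.12% ± 0.306 in Repo / + (SD, n = 3 each), the groups overlapped, and the exact two-sided permutation test gave p = 0.5, with 0.1 the smallest p that 3 against 3 libraries allow. As a share of counts without miRNA rows they took 12.49%, 13.02% and 12.3% in Repo > hTDP-43, against 11.5%, 12.01% and 11.42% in Repo / +. On that measure the groups did not overlap, and the same permutation test gave p = 0.1. S22 stood apart from its group: over these rows its log CPM correlated with S23 and S24 at 0.917 and 0.891, while S23 and S24 correlated at 0.979 and the Repo / + libraries with each other at between 0.969 and 0.98. Results are therefore also given without S22. Values below are CPM, a row's count relative to the library total after TMM scaling, which corrects for differences in library composition. They are not per exon length, so levels are compared between genotypes and not between genes.

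A few rows held a large share of the counts. Exon 2 of CG15506 (arm 3R) had 1049, 1369 and 1143 CPM in Repo > hTDP-43, against 1262, 1308 and 1148 CPM in Repo / +. Exon 5 of pav (3L), a kinesin-like protein of cell division, had 954.9, 1245 and 1066 CPM in Repo > hTDP-43 and 1159, 1199 and 1019 CPM in Repo / +. Exon 9 of CG32320 (3L), whose span holds the tRNA gene tRNA:Glu-CTC-3-8, had 628, 1103 and 1048 CPM in Repo > hTDP-43, against 876, 1212 and 1032 CPM in Repo / +. In all 3 rows the groups overlapped, with S22 the lowest library, and none passed the test (log2 fold changes -0.06, -0.05 and -0.17). These single rows held 5.28%, 4.82% and 4.19% of all counts on abundant rows, although in RNA-seq the mRNAs of CG15506 and pav were at 3.94 CPM or less in Repo > hTDP-43 and 5.78 CPM or less in the hTDP-43 / + libraries. The pav mRNA, at 1.303 and 0.751 CPM in Repo > hTDP-43 against 0.352 and 0.157 CPM in the hTDP-43 / + libraries, was higher by 2.06 (SE 0.57, edgeR adjusted p = 0.0413) while its small RNA row did not pass.

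The other host genes with the most counts were both 7SL RNA genes (7SLRNA:CR32864 and 7SLRNA:CR42652), onecut, Ir68b, snRNA:U4:39B, CG44774 and ninaE. The 7SL genes, which encode the RNA of the signal recognition particle, carried the same counts, so reads could not be assigned to one of them: 785, 912 and 939 CPM in Repo > hTDP-43, against 816, 820 and 746 CPM in Repo / +. Exon 1 of Ir68b (3L), a gene of the ionotropic receptor family, had 445, 679 and 522 CPM in Repo > hTDP-43, against 539, 633 and 562 CPM in Repo / +. The groups overlapped in both, and log2 fold changes were 0.15 (SE 0.15) and -0.07 (SE 0.18). The rows of onecut, a homeodomain transcription factor on chromosome 4, had 291, 374 and 311 CPM in Repo > hTDP-43 and 366, 362 and 328 CPM in Repo / +, again with overlap. Of these most abundant genes, only snRNA:U4:39B, CG44774 and 1 of 5 ninaE rows passed the test. One unnamed accession stood among them, with 634, 979 and 815 CPM in Repo > hTDP-43 against 357, 435 and 242 CPM in Repo / +, and did not overlap (log2 fold change 1.23, SE 0.24, edgeR adjusted p = 0.00998).

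All 3183 rows passed the filter on low counts and were tested with edgeR together with every other class of row. Of them 303 were higher and 139 lower in Repo > hTDP-43 at an adjusted p under 0.05. Counted once per profile, 253 of 2246 rows (11.3%) in 215 genes were higher and 105 (4.67%) in 92 genes lower, where over all 28127 rows tested 6.76% were higher and 2.28% lower. Much of that excess comes with the rule. Among the 1769 rows with at least 150 counts in each genotype, 6.16% were higher and 3.17% lower, near the 6.76% and 2.28% of all rows. Of the rows that reached 150 counts only in Repo > hTDP-43, 144 of 391 were higher and 0 lower, as they had entered through that genotype. Of those that reached 150 counts only in Repo / +, 49 of 86 were lower and 0 higher, for the same reason. Without S22 the test called 404 of all 3183 rows higher (12.7%) and 210 lower (6.6%). Over all rows tested without S22, 7.82% were higher and 1.88% lower. Of the 253 profiles that were higher, 251 were still called without S22 and 172 with scaling by library size alone, and of the 105 that were lower, 86 without S22 and 51 with library size alone. Summed to host genes, 222 of 1636 were higher and 88 lower, where 6.91% of all features tested with those sums were higher and 2.27% lower.

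**Figure D1:**
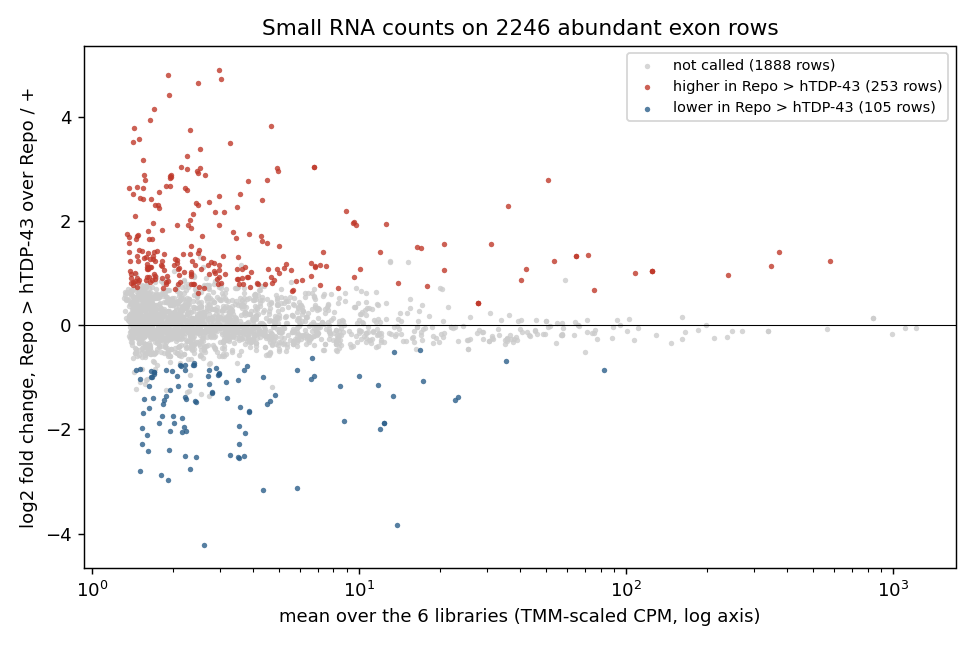
Each point is 1 abundant exon row (2246, each count profile of a gene once), with its mean level over 6 libraries in TMM-scaled CPM on a log axis and its log2 fold change, Repo > hTDP-43 over Repo / +. The 253 rows called higher and 105 called lower lie mostly at low levels, and the rows near 1000 CPM lie close to 0.

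All calls among snRNA and snoRNA genes were rises. Of the 29 small nuclear RNA (snRNA) genes, 18 were higher and 0 lower in Repo > hTDP-43, and of 117 small nucleolar RNA (snoRNA) genes 39 were higher and 0 lower, with median log2 fold changes of 0.67 and 0.54, where the median of all rows tested was 0.018. Among the 1957 rows of protein-coding genes the test called 182 higher and 96 lower, and their median was -0.00042. Restricted to rows with at least 150 counts in each genotype, 18 of 29 snRNA, 32 of 93 snoRNA and 52 of 1530 coding rows were higher. Of 78 long noncoding RNA rows 7 were higher and 3 lower, and of 32 antisense RNA rows 4 were higher and 6 lower.

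The snRNAs are the RNA cores of the spliceosome, each present in several gene copies. U7 (snRNA:U7), which instead guides the 3' end processing of histone mRNAs, had 50.1, 58.4 and 70.5 CPM in Repo > hTDP-43, against 13.2, 13.1 and 10.3 CPM in Repo / +. All 3 Repo > hTDP-43 libraries were above all Repo / + libraries, and its log2 fold change was 2.29 (SE 0.17, edgeR adjusted p = 7.59e-05). snRNA:U4:39B had 359, 552 and 713 CPM in Repo > hTDP-43, against 189, 229 and 196 CPM in Repo / +, without overlap (log2 fold change 1.40, SE 0.23, edgeR adjusted p = 0.00436). The other U4 copy, snRNA:U4:38AB, moved with it (1.36, SE 0.21). All 5 U1 copies were higher, by between 0.67 and 1.05 on the log2 scale, but 3 of them carried identical counts and so are not separate measurements. The same holds for the 3 U6 copies (0.43, SE 0.12), which lost their call with scaling by library size alone.

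Of the 7 U5 copies 6 were higher and 1 was not. snRNA:U5:14B had 11.2, 17.6 and 15.0 CPM in Repo > hTDP-43, against 3.24, 3.21 and 3.17 CPM in Repo / + (log2 fold change 2.19, SE 0.19, edgeR adjusted p = 0.000157), with no overlap. The most abundant copy, snRNA:U5:63BC, had 207, 210 and 177 CPM in Repo > hTDP-43 and 183, 203 and 207 CPM in Repo / +, with overlap and a log2 fold change of 0.0023 (SE 0.14). The remaining U5 copies were higher, from snRNA:U5:23D (0.75, SE 0.15) to snRNA:U5:35D (1.98, SE 0.18). U2, which pairs with the branch point of introns, was close to 0 in all 6 copies, with log2 fold changes between 0.00 and 0.08 and a largest SE of 0.24. Of the minor spliceosome RNAs, U6atac was higher, at 9.46, 5.26 and 4.86 CPM in Repo > hTDP-43 against 1.96, 2.00 and 2.40 CPM in Repo / + (1.62, SE 0.27, edgeR adjusted p = 0.00406). U11, U12 and U4atac did not pass the test (0.15, 0.39 and -0.13), nor did 7SK (snRNA:7SKa, 0.10). Without S22 the same counts of U1, U2, U4, U5, U6 and U7 copies were called, and the U5 median was 2.10 against 1.92 with it. With scaling by library size alone, 4 of 5 U1, 2 of 2 U4, 5 of 7 U5 and 0 of 3 U6 copies were called, and U7 was too. In the RNA-seq libraries, which cover longer RNA, no tested U1, U2, U4, U5, U6 or U7 gene passed the test, and U4atac (snRNA:U4atac) was higher by 1.25 (SE 0.32, edgeR adjusted p = 0.0315).

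**Figure D2:**
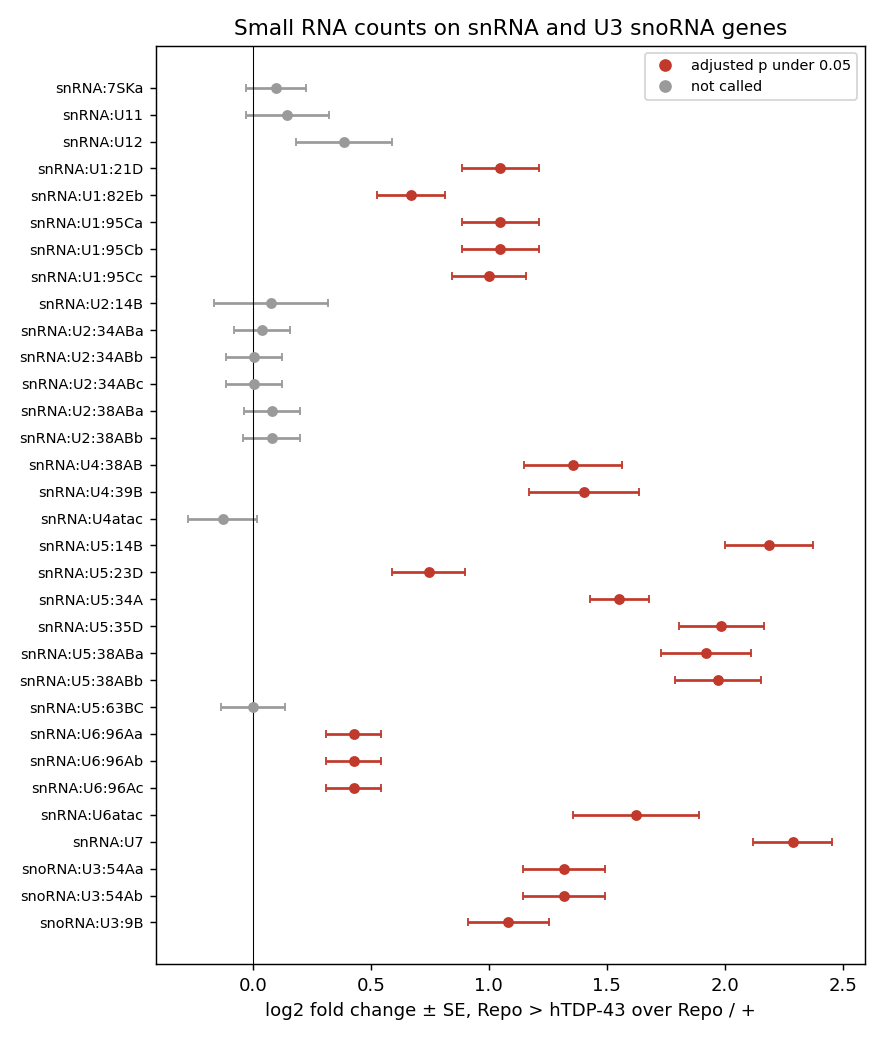
Log2 fold change with its SE (Repo > hTDP-43 over Repo / +, 3 libraries each) for the 29 snRNA genes and the 3 U3 snoRNA genes, red where the adjusted p was under 0.05. U7, U4, U1, U3 and most U5 copies lie to the right of 0, while all U2 copies and U5:63BC lie at 0.

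Among the snoRNAs, which guide chemical modification or cleavage of ribosomal RNA, the U3 genes that act in pre-rRNA cleavage were all higher. snoRNA:U3:54Aa and snoRNA:U3:54Ab, with the same counts, had 74.2, 101 and 103 CPM in Repo > hTDP-43, against 43.5, 37.0 and 31.1 CPM in Repo / + (log2 fold change 1.32, SE 0.17, edgeR adjusted p = 0.00139). snoRNA:U3:9B was higher by 1.08 (SE 0.17). Of 45 methylation guides (named Me) 17 were higher and 0 lower, and of 32 pseudouridine guides (named Psi) 9 were higher and 0 lower. With scaling by library size alone these counts were 4 and 7, and without S22 they were 26 and 10. The pseudouridine guide snoRNA:Psi28S-2566 had 16.7, 19.4 and 23.98 CPM in Repo > hTDP-43, against 6.29, 4.92 and 4.33 CPM in Repo / +, without overlap (log2 fold change 1.95, SE 0.19, edgeR adjusted p = 0.00027). The snoRNA with the most counts, snoRNA:Or-CD12, had 97.9, 137 and 153 CPM in Repo > hTDP-43 and 144, 207 and 142 CPM in Repo / +, with overlap and no call (-0.35, SE 0.20).

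Among exons of protein-coding genes, the 6 rows with the largest rise belonged to Pdk, CG14961, CG42331, GstD2, Rpn2 and kel. Exon 6 of Pdk, the kinase that inactivates pyruvate dehydrogenase, had 4.19, 7.22 and 5.89 CPM in Repo > hTDP-43, against 0.209, 0.255 and 0.113 CPM in Repo / +. The log2 fold change was 4.90 (SE 0.33, edgeR adjusted p = 6.21e-05). Exon 1 of GstD2, a glutathione S-transferase of detoxification, had 3.31, 4.15 and 3.64 CPM in Repo > hTDP-43, against 0.183, 0.255 and 0.0849 CPM in Repo / + (4.42, SE 0.30). Exon 4 of Rpn2, a subunit of the proteasome's regulatory particle, had 2.71, 3.87 and 3.11 CPM in Repo > hTDP-43, against 0.183, 0.219 and 0.142 CPM in Repo / + (4.14, SE 0.27). Exon 5 of kel, which encodes the ring canal protein Kelch of the egg chamber, had 2.46, 3.90 and 2.90 CPM in Repo > hTDP-43, against 0.157, 0.219 and 0.226 CPM in Repo / + (3.93, SE 0.29). Exon 2 of CG14961 and exon 7 of CG42331 were higher by 4.72 (SE 0.27) and 4.64 (SE 0.28), each at between 4.04 and 7.26 CPM in Repo > hTDP-43 and at 0.261 CPM or less in Repo / +. The 6 rows were picked among called rows whose groups do not overlap, a trait that 27.1% of all rows tested had. Missing overlap and a passed test are thus no separate result. The edgeR adjusted p-values were 7.59e-05 or less, and without S22 the changes were between 4.10 and 5.12. Being under 1 CPM in Repo / +, these rows entered the selection through the Repo > hTDP-43 libraries.

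The rows with the largest fall belonged to Cyp4g1, Nox, lncRNA:CR44220, MFS18, CG43341 and Fign. Exon 1 of Cyp4g1, the oenocyte cytochrome P450 that makes cuticular hydrocarbons, had 0.333, 0.184 and 0.267 CPM in Repo > hTDP-43, against 4.31, 2.00 and 8.63 CPM in Repo / + (log2 fold change -4.21, SE 0.53, edgeR adjusted p = 0.00106). Exon 1 of Nox, an NADPH oxidase, had 1.65, 1.81 and 1.98 CPM in Repo > hTDP-43, against 22.6, 12.2 and 42.5 CPM in Repo / + (-3.83, SE 0.40, edgeR adjusted p = 0.000373). Exon 1 of lncRNA:CR44220 had 0.812, 1.08 and 0.770 CPM in Repo > hTDP-43, against 6.27, 2.44 and 14.9 CPM in Repo / + (-3.16, SE 0.55). Non-overlap was again a condition of the choice. In these rows the Repo / + libraries differed among themselves, S20 being the lowest and S21 the highest each time. The same order held for exon 3 of MFS18 (-3.12, SE 0.50) and exon 6 of Fign, a microtubule-severing protein (-2.86, SE 0.52). Over the 6 rows the highest Repo / + library was 4.39 times the lowest (median), and over all rows called lower 1.5 times. Exon 1 of CG43341 was even, at 0.292, 0.369 and 0.651 CPM in Repo > hTDP-43 against 2.82, 4.23 and 3.17 CPM in Repo / + (-2.98, SE 0.30, edgeR adjusted p = 0.00031), and an antisense RNA gene over it, asRNA:CR45131, was also lower (-2.51). The rows of Cyp4g1, CG43341 and Fign, at 0.651 CPM or less in Repo > hTDP-43, entered the selection through the Repo / + libraries. The others also drew most of their counts from Repo / +.

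**Figure D3:**
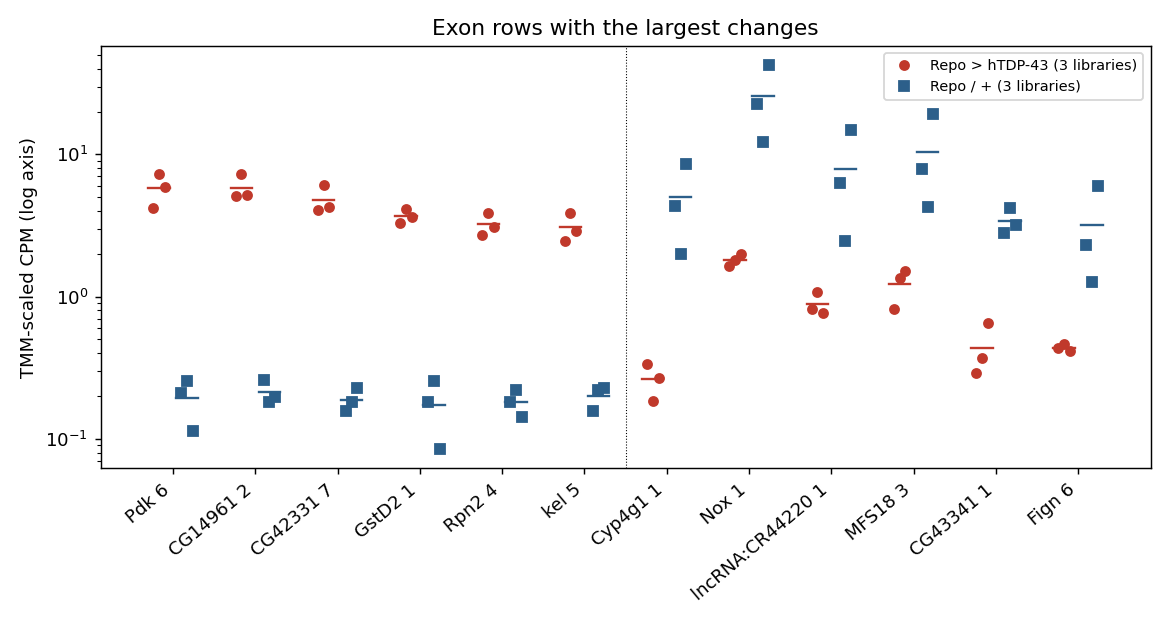
TMM-scaled CPM on a log axis in every library for the 6 exon rows with the largest rise (left of the dotted line) and the 6 with the largest fall, labelled by host gene and exon number. Repo > hTDP-43 libraries are circles, Repo / + libraries squares, and bars are means. The 12 rows were picked among called rows whose groups do not overlap, and the Repo / + libraries spread over several-fold in 5 of the 6 rows that fell.

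Rises were compared across the exons of a gene. Of 48 genes with an abundant row higher by at least 2 on the log2 scale, 24 had 3 or more tested exon rows, counting also those under 300 counts. In these, 94 of 117 rows were higher and 0 lower, and in 10 genes every tested row was higher, while in 1 gene a single row was. Over all tested exon rows 7.94% were higher and 2.53% lower, but the rows that chose these genes are among the 94, so the count is a description. The other rows were tested only if they passed the filter on low counts, which a row can do through either genotype alone. Isoform versions of an exon with nearly equal counts are also counted as separate rows. The gene mv (mauve), which encodes a regulator of lysosome-related organelles, was higher in 14 of 14 rows, by between 1.47 and 3.02. Its exon 6 had 7.44, 9.93 and 8.88 CPM in Repo > hTDP-43, against 1.20, 1.49 and 0.566 CPM in Repo / + (3.02, SE 0.29, edgeR adjusted p = 0.00027). Vps13B, a lipid-transfer protein of endosomes and the Golgi, was higher in 11 of 12 rows, with a median of 3.52. The 4 tested rows of kel and of Rpn2 were all higher, with medians of 3.65 and 2.91.

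In a few genes one exon was far above the others. The Pdk rise lay on exon 6 in 2 isoform versions (the larger by 4.90), while exons 1, 4 and 5 were at 0.20, 0.19 and -0.43 and did not pass. Exon 9 of Pgant5, a glycosyltransferase that starts mucin-type O-glycans, was higher by 3.56 (SE 0.30, edgeR adjusted p = 0.000147), and its 4 other tested rows lay between -0.20 and 0.57. Exon 9 of Larp4B, an RNA-binding protein of the La-related family, had 8.20, 13.8 and 14.1 CPM in Repo > hTDP-43, against 1.28, 1.49 and 1.61 CPM in Repo / + (3.04, SE 0.24), while its exon 7 was higher by only 0.91 and its exon 1 lay at 0.26. Of 22 genes with a row lower by at least 2, only 7 had 2 or more tested rows, and in 5 of these 1 row was lower. A smaller fall ran over exons 1, 3 and 4 of eco, a cohesin acetyltransferase, which were lower by 1.87, 1.87 and 1.95, exons 1 and 3 with almost equal counts.

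The endo-siRNA loci had few abundant rows. Exon 4 of CG44774 (X), whose span overlaps the hairpin RNA gene hpRNA:CR46342, had 359, 574 and 497 CPM in Repo > hTDP-43, against 223, 278 and 153 CPM in Repo / +. All Repo > hTDP-43 libraries were above the Repo / + libraries (log2 fold change 1.13, SE 0.24, edgeR adjusted p = 0.0155). Leaving out S21 or S23 moved the adjusted p to 0.0559 and 0.0816, with changes of 0.92 and 0.98. Its mRNA was at 174 and 171 CPM in Repo > hTDP-43, against 129 and 145 CPM in the hTDP-43 / + libraries (0.34, SE 0.10, edgeR adjusted p = 0.0412). CG32212 (3L), whose span overlaps the hairpin RNA gene hpRNA:CR33940, was also higher when its exon rows were summed (1.53, SE 0.19, edgeR adjusted p = 0.000827). The CG32212 mRNA was too low to be tested, at 0.21 CPM or less in Repo > hTDP-43 and 0.10 CPM or less in hTDP-43 / +. AGO2 and CG7739, neighbours on 3L whose spans overlap, were higher in the mean without passing the test. Exon 6 of AGO2 had 4.94, 8.61 and 9.06 CPM in Repo > hTDP-43 and 3.84, 6.09 and 4.87 CPM in Repo / +, and exon 2 of CG7739 had 7.87, 11.2 and 10.7 CPM in Repo > hTDP-43 and 5.88, 7.87 and 6.90 CPM in Repo / +. S22 overlapped the Repo / + libraries in both. Their log2 fold changes were 0.61 (SE 0.25, edgeR adjusted p = 0.218) and 0.53 (SE 0.18, edgeR adjusted p = 0.122), and without S22 they were 0.88 (edgeR adjusted p = 0.0208) and 0.70 (edgeR adjusted p = 0.0188). Of the listed small RNA pathway genes, the rows of AGO1 and r2d2 were at 0.03 to 0.10.

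Both Arc genes, capsid-like proteins related to retrotransposon Gag that are active in neurons, had higher small RNA counts. Arc1 had 85.4, 87.7 and 94.1 CPM in Repo > hTDP-43, against 12.9, 11.9 and 13.8 CPM in Repo / + (log2 fold change 2.79, SE 0.13, edgeR adjusted p = 2.74e-05). Arc2 had 3.17, 4.55 and 3.79 CPM in Repo > hTDP-43, against 0.470, 0.474 and 0.453 CPM in Repo / + (3.03, SE 0.22). The libraries of a genotype lay close together and did not overlap with the other, a lack of overlap that 27.1% of all rows tested had. At 0.474 CPM or less in Repo / +, the Arc2 row entered the selection through the Repo > hTDP-43 libraries. Their mRNAs were higher too, Arc1 at 4242 and 4432 CPM in Repo > hTDP-43 against 493 and 527 CPM in the hTDP-43 / + libraries (3.10, SE 0.11, edgeR adjusted p = 0.000149), and Arc2 by 1.84 (SE 0.22).

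The eye list gave few calls. Of 11 rows of transgene and driver genes 3 were higher and 0 lower, namely exons 3 and 6 of white and exon 2 of repo, described below. Of 39 rows of phototransduction and eye genes 3 were higher and 1 lower, shares near the 6.76% and 2.28% of all rows tested, and 25 had S22 as the highest library. Without S22 the counts were 5 higher and 4 lower, with a median change of -0.21 (log2), where it was 0.09 over all 6 libraries. The rises were exon 3 of rdgA, a diacylglycerol kinase of photoreceptors (1.83, 2.55 and 2.37 CPM in Repo > hTDP-43, against 0.679, 0.656 and 0.707 CPM in Repo / +, log2 fold change 1.71, SE 0.21), and exons 3 and 6 of white (w). White encodes a pigment transporter and is also widely used as the eye-colour marker on fly transgenes. Its exon 6 had 3.08, 2.92 and 3.46 CPM in Repo > hTDP-43, against 1.41, 1.28 and 0.990 CPM in Repo / + (1.36, SE 0.20, edgeR adjusted p = 0.00215). This row and the rdgA row drew most of their counts from Repo > hTDP-43, and so entered the selection mainly through those libraries. Of the 6 tested white rows 5 were higher, and the white mRNA was at 233 and 244 CPM in Repo > hTDP-43 against 2.59 and 2.46 CPM in the hTDP-43 / + libraries (6.57, SE 0.11). Whether transgene copies of white took part was not tested.

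Exon 2 of repo, the glial transcription factor whose regulatory region drives the transgene, had 3.81, 4.06 and 4.56 CPM in Repo > hTDP-43, against 1.96, 2.48 and 1.89 CPM in Repo / + (0.98, SE 0.18, edgeR adjusted p = 0.00856), while exon 1 did not pass (0.31, SE 0.18). Exon 3 of ninaE, the main rhodopsin, had 34.5, 22.8 and 24.1 CPM in Repo > hTDP-43, against 44.9, 41.5 and 44.1 CPM in Repo / + (-0.68, SE 0.16, edgeR adjusted p = 0.0285). Its call was lost with scaling by library size alone (-0.51, edgeR adjusted p = 0.584), with TMM factors from miRNA rows (-0.54), with mapped reads as library sizes (-0.52), with a minimum of 10 counts in every library (-0.64) and with no filter (-0.65). It was also lost when any single library other than S22 was left out, with fold changes between -0.72 and -0.57 there. The other 4 ninaE rows lay between -0.34 and -0.04 without a call.

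Genes of the fat body had lower rows. Exon 1 of Lsp2, a larval storage protein also made in the adult fat body, had 1.40, 1.01 and 0.651 CPM in Repo > hTDP-43, against 7.89, 6.01 and 4.27 CPM in Repo / + (-2.54, SE 0.31, edgeR adjusted p = 0.000771). Exon 2 of Lsp1beta had 1.21, 0.676 and 0.592 CPM in Repo > hTDP-43, against 2.25, 2.62 and 5.69 CPM in Repo / + (-2.06, SE 0.39, edgeR adjusted p = 0.00937). Neither overlapped between genotypes, a trait that 27.1% of all rows tested had. Both drew most of their counts from Repo / + and so entered the selection mainly through those libraries. Their falls thus come partly with the rule. With Obp99b, an odorant-binding protein, they made up the 5 of 10 fat body rows that were lower. The other 5 rows, 4 of them of apolpp, lay between -0.22 and 0.01. Lsp2 was counted in 2 versions of exon 1 with nearly equal counts (740 and 737 over all libraries). Obp99b is also on the list of male and female markers. asRNA:CR11538, an antisense gene over Lsp2, gave nearly the same counts and was lower by 2.50. Without strand, these cannot be told apart. The Lsp2 mRNA was at 13.03 and 15.6 CPM in Repo > hTDP-43, against 445 and 467 CPM in the hTDP-43 / + libraries (-4.98, SE 0.13, edgeR adjusted p = 3.85e-05).

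Other lists show what S22 contributed. Of 115 rows of cytosolic ribosomal protein genes none passed edgeR's test, in 114 S22 was the highest of the 6 libraries, and their summed level was 665, 285 and 239 CPM in Repo > hTDP-43 against 295, 288 and 281 CPM in Repo / +. Their median log2 fold change was 0.46 with S22 and -0.11 without it. For 22 rows of mitochondrial and energy genes S22 was highest in 21. None passed edgeR's test with S22, 4 were lower without it, and the median was -0.39 without it against -0.04 with it. For the muscle markers the summed level was 35.8, 14.4 and 10.6 CPM in Repo > hTDP-43 against 17.7, 18.7 and 18.2 CPM in Repo / +. S22 was highest in 1 of 29 snRNA rows. Neuron and glia markers, which fit the labelled tissue, had 7 abundant rows each, of which 0 and 1 (repo exon 2) passed the test. Of 7 rows of male and female markers only both Obp99b rows were called. The part of the S22 sample itself in these values was not tested.

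mRNAs of the host genes were then set beside their small RNA rows. Of 1508 host genes tested in the RNA-seq libraries, 164 (10.9%) were higher and 320 (21.2%) lower in Repo > hTDP-43, where over all 13507 features 15.3% were higher and 12.5% lower. With scaling by library size alone the host genes counted 229 higher and 177 lower, so that balance depends on the scaling. Of 139 coding genes with a small RNA row higher, 41 (29.5%) had a higher and 10 (7.19%) a lower mRNA. Of 77 with a row lower, 7 (9.09%) had a higher and 35 (45.5%) a lower mRNA, and of 1120 with no called row, 104 (9.29%) had a higher and 267 (23.8%) a lower mRNA. Over all 1336 coding host genes Spearman's rho between the 2 log2 fold changes was 0.28 and Pearson's r 0.21, and over the 216 with a called row 0.39 and 0.35, across genes that are not independent replicates and with different controls in the 2 assays.

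Genes with the largest small RNA changes included many without an mRNA change. Of 44 coding genes with a row higher by at least 2, 19 had a higher mRNA, 2 a lower one and 23 neither. Those values come from RNA-seq controls that carry the transgene and no driver. The mRNAs of Pdk (log2 fold change 0.07, SE 0.10), Rpn2 (0.0083, SE 0.08), kel (0.02, SE 0.08) and CG6654 (-0.20, SE 0.09) did not pass the test, while those of CG14961 (2.26, SE 0.31), GstD2 (2.71, SE 0.34) and CG42331 (1.12, SE 0.19) were higher. The mRNA of kel was at 57.3 and 58.8 CPM in Repo > hTDP-43, against 58.3 and 57.4 CPM in the hTDP-43 / + libraries. Among the genes with the largest falls, the mRNAs of Cyp4g1 (0.20), Nox (-0.25), MFS18 (-0.30), CG43341 (0.15) and Fign (1.18) did not pass the test. That of lncRNA:CR44220 was not tested. Cyp6a2, a cytochrome P450 of detoxification, went in both directions: its exon 1 small RNA counts were higher by 3.01 (SE 0.26) and its mRNA lower, at 91.6 and 88.1 CPM in Repo > hTDP-43 against 120 and 112 CPM in the hTDP-43 / + libraries (-0.36, SE 0.08, edgeR adjusted p = 0.0214). Beside these mRNA values, 11 of 12 testis markers had a higher mRNA in Repo > hTDP-43 heads, with a summed level of 127 and 77.1 CPM in Repo > hTDP-43 against 31.4 and 15.2 CPM in the hTDP-43 / + libraries, and 9 of 11 neuron markers had a lower one (8582 and 9068 CPM, against 11930 and 12980 CPM). The mRNA was also lower for 6 of 10 tested fat body markers, 4 of 13 muscle markers and 4 of 9 glia markers. Higher mRNAs were called for 2 glia markers and for 0 of the fat body and muscle markers. No testis marker had an abundant small RNA row. The part of cell composition in the mRNA values was not tested.

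**Figure D4:**
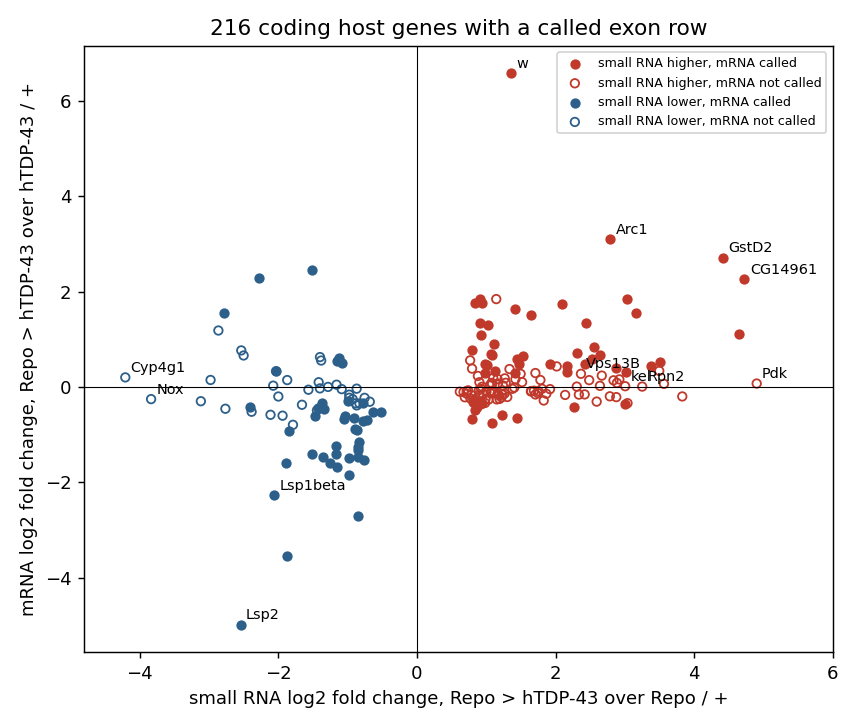
For 216 coding host genes, the small RNA log2 fold change of the called exon row with the most counts (Repo > hTDP-43 over Repo / +) against the mRNA log2 fold change (Repo > hTDP-43 over hTDP-43 / +), filled where the mRNA passed the test. Pdk, Rpn2 and kel lie at the right with mRNA changes of 0.07, 0.0083 and 0.02, Arc1, GstD2 and CG14961 are up on both axes, and Lsp2 and Lsp1beta are down on both.

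By whole gene spans, without regard to strand, called and uncalled host genes overlapped other genes about as often. Overlap of convergent exons was not measured, so the part of such overlap was not tested. Of the coding host genes with a row higher, 71 of 146 (48.6%) had a span overlapping another annotated gene, as had 45 of 83 (54.2%) with a row lower and 706 of all 1394 (50.6%). Genes with a row higher made up between 9.46% of coding host genes on the X and 12.4% on 2R, and 0 of 15 on chromosome 4. Of 865 tested intron rows of the host genes, 8.32% were higher and 1.62% lower, near the 6.76% and 2.28% of all rows tested.

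At the edge of the selection, rows of side (exon 1), CG1648 (exon 3) and Syt4 (exon 5) held 300 counts and were in, and rows of Calr (exon 3), Nlp (exon 3) and CG8665 (exon 2) held 299 and were out. More rows share the total of 300, and the order in the table decided which are named. Nlp held 97, 99 and 65 counts in Repo > hTDP-43 against 17, 10 and 11 in Repo / +, and the other 5 had overlapping or nearly even counts.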

How the data were processed

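Head RNA of 18 to 29 nucleotides was sequenced in 6 small RNA libraries, and RNA-seq from 4 libraries was compared beside it (2 libraries with a neuronal driver were not used). Per the labels and the study's methods, the authors mapped reads to dm3, with STAR, Bowtie and bedtools named in the submitters' processing notes, and deposited whole-number counts without normalization. Small RNA reads with several alignments appear on several rows, and how they were shared is not given in the sources used here. Row names hold a transcript accession and an exon number but no strand, so the planned antisense to sense ratio was not computed. Gene names, arms and overlaps came from a Release 6 gene table, and no coordinates are given because the builds differ.

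Samples were grouped by their labels. Counts were tested with edgeR 4.0.16 (R 4.3.3), TMM scaling, filterByExpr and its quasi-likelihood F-test, and p-values were adjusted by Benjamini-Hochberg over all tested rows of a table, with a threshold of 0.05. DESeq2 1.42.0, other scalings and filters, and leaving out each library were tried. The script was tested on simulated data. Host gene sums add all exon rows of a gene, isoform repeats included. SE is the log2 fold change divided by the square root of F. Named rows are the 10 matched host genes with the most counts, the 6 largest changes in each direction among called rows without overlap (1 per gene), called members of gene lists, and rows at the threshold. Other named rows were chosen after their values were seen. The members and the lists were chosen with earlier results of these data known. The RNA-seq libraries held between 22476024 and 41150009 counts. Reads carry no molecular identifiers, so counting precision alone understates the error.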

Additional observations from a re-analysis of the deposited data

How the results depend on the processing

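No paired analysis was possible because the genotypes share no replicate numbers. The main counts of 442 called exon rows, 310 called host genes and 484 called host mRNAs moved by over 1.5 times under these settings. Called exon rows numbered 218 with TMM factors from miRNA rows, 273 with library size alone, 277 with the study's mapped reads as library sizes, 247 at an adjusted p under 0.01, 106 among the 730 rows with at least 1000 counts and 1394 among the 11573 with at least 100. Leaving out 1 library gave between 278 and 614 called rows. It moved the count by over 1.5 times without S19 (292), S21 (290) or S23 (278), and by less without S22 (614). Host genes numbered 146 with TMM factors from miRNA rows and 177 with library size alone. Host mRNAs numbered 147 at an adjusted p under 0.01, and between 77 and 927 when 1 of 4 libraries was left out (77 without S05, 93 without S06, 927 without S14), where a lone library was assumed to vary like the other group. The share of counts on abundant rows kept its direction in every setting run, with differences (Repo > hTDP-43 minus Repo / +) between 0.121 and 0.532 percentage points when 1 library was left out. As a share of counts without miRNA rows the difference was 0.958 points, and as a share of mapped reads 0.325 points. Counting identical rows of a gene once, an alternative chosen after seeing the data, called 369 rows and 313 host genes. Scaling by library size alone moved the median log2 fold change of all rows tested to 0.14, against 0.018 with TMM. It called 212 abundant rows higher (6.66%) and 61 lower (1.92%), where over all rows tested 4.99% were higher and 0.903% lower. Of the named rows, none reversed in a call, the ninaE exon 3 and CG44774 calls were lost in the settings given with their values, and ninaE exons 2 and 4 were called without S22 (-0.72 and -0.62). Rows under 1 CPM in a genotype rest on few reads there, and rows shared by near-identical gene copies or by overlapping genes cannot be assigned to one of them.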
